A study of Homo sapiens and Mus musculus with 74 samples.

Results

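Laminins, nidogen and the basement membrane heparan sulfate proteoglycans were followed here as 10 genes across kidney and brain of mice without the ribosomal protein gene Rpl41 and of their wild-type controls. The genes were Lama1, Lama2, Lama4, Lama5, Lamb1, Lamb2, Lamc1, Nid1, Hspg2 and Agrn, out of 22484 coding genes with a transcript in the mouse count table, each read through its transcript with the longest protein. They had been selected on earlier results from these same libraries (footprints, RNA and disomes in KO against WT) by name and not by a threshold, so every KO against WT value of theirs is a description and carries no test. The study compared WT (Rpl41+/+) with KO (Rpl41-/-) animals, in which CRISPR-Cas9 removed the entire coding sequence of Rpl41 from C57BL/6J zygotes, a deletion carried by the whole animal and not by 1 cell type. Animals were males 10 weeks old, and the labels give kidney or brain as the whole tissue with no cell sort. Ribosome profiling (Ribo-seq, which counts fragments protected by single ribosomes, called footprints) and poly(A) RNA-seq were made from both tissues and disome-seq, which counts fragments protected by 2 stacked ribosomes, from kidney, with 3 replicates in each of the 10 groups. The 44 human cell line samples of the series were not analysed here.

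Libraries summed to between 11036643 and 42452425 counts in kidney Ribo-seq, 9498663 and 35881929 in brain Ribo-seq, 44998381 and 55077048 in kidney RNA-seq, 84433838 and 123745890 in brain RNA-seq, and only 1187636 and 3018963 in disome-seq. A fragment that fits several transcripts of a gene adds to each, so these sums exceed the number of fragments. Rpl41 had 0 to 12 counts in the KO libraries and 37 to 12199 in the WT libraries. Proximal tubule markers (6 genes) summed to 3092 or more CPM in kidney RNA-seq against at most 7.70 in brain, and neuronal markers (6 genes) to 1411 or more in brain against at most 0.779 in kidney, where Slc17a7 was at 0. CPM stands here and below for counts divided by the library's effective size, after TMM scaling within the tissue and assay, and brought to a common scale.

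Laminins are cross-shaped trimers of an α, a β and a γ chain, joined in the endoplasmic reticulum by a coiled coil and secreted whole, that polymerise into the sheet on which epithelial, endothelial, muscle and glial cells rest. Nidogen links this laminin sheet to the type IV collagen network, and the proteoglycans perlecan and agrin add heparan sulfate chains and further bridges to cell surface receptors such as dystroglycan and integrins. In kidney these proteins form the tubular and glomerular basement membranes, and in brain those of the blood vessels and of the surface beneath the meninges.

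The members are long, cysteine-rich proteins. Among 21712 coding genes with a complete coding sequence, the median protein had 392 residues and 2.14% cysteine, whereas the members ran from 1245 (Nid1) to 4383 residues (Hspg2) and from 2.59% (Lama4) to 6.98% cysteine (Agrn, with Lamb1 at nearly the same value). Even the shortest member was longer than 93.4% of the genes, and 4 of the 10 lay above the 95th percentile for cysteine. The site through which nidogen binds laminin is a stretch of 7 residues in the γ1 chain, at residues 831 to 837 here, whose coding bases are shown because they tie Lamc1 to Nid1 among the members. It lies in exon 14 of Lamc1. The 27 bases below (GRCm38, chr1:153243358-153243384, minus strand) hold its 7 codons in capitals and a flanking codon on each side, written 5′ to 3′ on the coding strand:
Lamc1: gacAACATAGACCCCAACGCGGTTggc
The search was for the residues NIDPNA or NVDPNA in single-letter code. It found neither in the γ3 chain gene Lamc3, but a site with another second residue would have been missed. Whether γ3 holds a nidogen site was therefore not decided here.

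The genes lie on 8 chromosomes (GRCm38, GENCODE M21, given as the transcript read and the span of the whole gene over all its transcripts). Of the α chains, Lama1 is ENSMUST00000035471, chr17:67697259-67822647, plus strand, Lama2 is ENSMUST00000092639, chr10:26980036-27619758, minus strand, Lama4 is ENSMUST00000019992, chr10:38965515-39110188, plus strand, and Lama5 is ENSMUST00000015791, chr2:180176373-180225859, minus strand. Of the β chains, Lamb1 is ENSMUST00000002979, chr12:31265234-31329644, plus strand, and Lamb2 is ENSMUST00000065014, chr9:108479736-108490530, plus strand, while the γ1 chain gene Lamc1 is ENSMUST00000027752, chr1:153218922-153332786, minus strand. Nid1 is ENSMUST00000005532, chr13:13437551-13512269, plus strand, Hspg2 is ENSMUST00000171332, chr4:137468769-137570630, plus strand, and Agrn is ENSMUST00000180572, chr4:156165290-156197488, minus strand. Counts covered the exons of these transcripts, from 20 exons in Nid1 to 97 in Hspg2.

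WT kidney against WT brain uses no KO library and is not the KO against WT contrast that chose the members. They were still chosen with earlier results of these libraries known. Tissue and library preparation cannot be told apart in any WT comparison of kidney with brain given here. WT kidney held more of most of these messages than brain. The RNA of 9 of 10 members was higher in WT kidney than in WT brain (edgeR's quasi-likelihood F-test, with p-values adjusted by Benjamini-Hochberg across 88731 transcripts, of which 28.3% were called higher in kidney), with a median log2 difference of 1.90 against 0.10 over 16011 genes. Lama5 RNA was 35.9, 54.9 and 33.8 CPM in the 3 WT kidneys and 4.89, 2.84 and 3.87 in the 3 WT brains, and Hspg2 RNA was 27.1, 39.2 and 25.6 and 3.83, 2.95 and 4.17. No brain library came near a kidney library for either gene. The largest differences were those of Lama5 at 3.73 ± 0.28 (SE, adjusted p = 1.24e-06), the α chain of mature epithelial and endothelial basement membranes, and of Hspg2 at 3.37 ± 0.24 (adjusted p = 7.11e-07), which encodes perlecan. Lamb1 followed at 2.94 ± 0.19 (adjusted p = 3.95e-07), then Lama1 at 2.57 ± 0.20 (adjusted p = 1.35e-06) and Nid1 at 2.35 ± 0.21 (adjusted p = 4.60e-06). Smaller excesses in kidney were found for Lamb2 at 1.46 ± 0.24, Lama4 at 0.82 ± 0.28, Lamc1 at 0.79 ± 0.20 and Lama2 at 0.75 ± 0.22, with adjusted p of 3.54e-04, 0.0253, 0.00598 and 0.0113. Agrn, whose protein gathers acetylcholine receptors at synapses besides its basement membrane role, was the exception at -0.07 ± 0.16 (adjusted p = 0.731). The Lama4 call was kept in 7 of 14 alternative settings, with adjusted p from 0.00577 to 0.130, and was lost without WT brain replicate 1 or 2 or WT kidney replicate 2. That of Lama2 was lost in 2 of 14, with library totals and without WT brain replicate 2 (adjusted p of 0.0727 and 0.0554), and that of Lamc1 with library totals (adjusted p = 0.0761).

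Footprints gave a narrower contrast between the tissues. 8 of 10 members had more footprints in WT kidney (35% of 82957 transcripts were called higher in kidney), with a median log2 difference of 0.65 against 0.02 over 14929 genes. 4 members stood well above the rest, Hspg2 at 2.44 ± 0.23, Lamb1 at 2.39 ± 0.16, Lama5 at 2.37 ± 0.13 and Nid1 at 2.35 ± 0.19 (adjusted p of 3.71e-07, 9.96e-09, 9.87e-10 and 5.37e-08). Lama2, Lamb2, Lamc1 and Agrn were higher in kidney by 0.45 to 0.79 on the log2 scale, and Lamc1 sat at the edge of the threshold (adjusted p = 0.0496, called in 4 of 14 alternative settings with p from 0.00457 to 0.186). Lama1 at 0.45 ± 0.23 and Lama4 at 0.32 ± 0.27 did not pass (adjusted p of 0.0906 and 0.305). The count of 8 became 5 without WT brain replicate 2, the shallowest Ribo-seq library of brain, and 5 without WT kidney replicate 2, where Lamb2, Lamc1 and Agrn did not pass.

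Footprints relative to RNA, the translation efficiency (TE), differed between WT tissues for 2 α chains. TE was lower in kidney for Lama1, with a log2 difference of -2.09 ± 0.34 (edgeR adjusted p = 3.14e-04), and for Lama5, with -1.34 ± 0.32 (adjusted p = 0.00701), and both calls were made in all 20 alternative settings. Of 96684 transcripts, 8.09% were called lower in kidney. Lama1, a chain of early embryonic and some tubular basement membranes, had RNA of 7.12, 8.22 and 7.54 CPM in the 3 WT kidneys and 1.68, 1.43 and 1.61 in the 3 WT brains, without overlap. Its footprints were 8.06, 8.09 and 5.48 in kidney and 5.95, 3.55 and 7.01 in brain, where the ranges overlapped. The other 8 members had TE differences between -0.93 (Lamb2) and 0.53 (Agrn), none past the threshold. With a limma voom fit 4 members passed, 3 lower and 1 higher in kidney, DESeq2 called 4 lower, and without WT kidney RNA-seq replicate 3 edgeR called 4 lower. Over all transcripts limma voom called 16147 lower and 22695 higher in kidney, and DESeq2 called 11068 lower and 11963 higher.

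**Figure D1:**
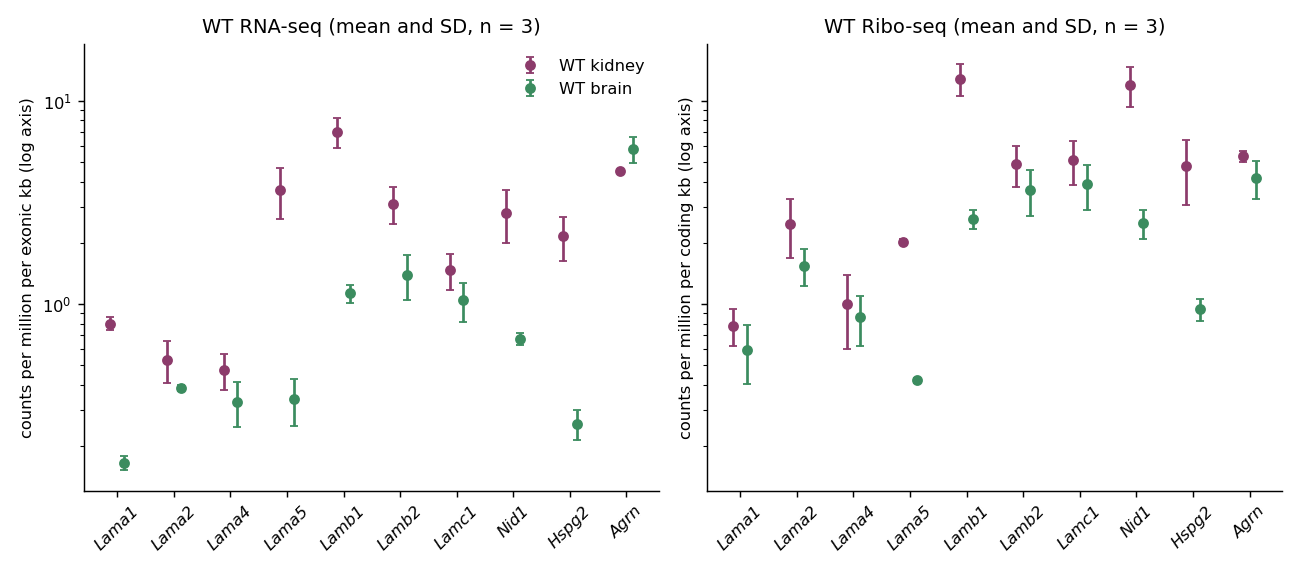
WT levels of the 10 members in kidney and brain, as CPM per exonic kb for RNA-seq (left) and per coding kb for Ribo-seq (right), on log axes. Points are means and bars SD of 3 libraries. Kidney and brain are far apart for Lama5, Lamb1, Nid1 and Hspg2 in both panels, and for Lama1 in the RNA panel with 0.801 ± 0.0583 against 0.165 ± 0.0137, while Agrn has 4.52 ± 0.0650 in kidney and 5.81 ± 0.848 in brain.

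Per length, the order of the members differed between the 2 tissues (levels were scaled within each tissue and assay). In WT kidney footprints, Lamb1 at 12.8 ± 2.28 (SD, n = 3) and Nid1 at 11.9 ± 2.63 CPM per coding kb led, with overlapping ranges. Agrn, Lamc1, Lamb2 and Hspg2 formed a middle group between 4.75 and 5.32, each overlapping its neighbour, close to the median of 4.60 over all genes tested. Lama2 at 2.48 ± 0.800 and Lama5 at 2.02 ± 0.0616 came next and overlapped, and Lama4 at 0.996 ± 0.394 and Lama1 at 0.779 ± 0.162 were lowest and did not differ beyond their spread. In WT brain, Agrn at 4.17 ± 0.894, Lamc1 at 3.87 ± 0.971 and Lamb2 at 3.64 ± 0.942 led with overlapping ranges. Lama5, at 0.421 ± 0.0131, was the lowest in brain although its range met that of Lama1. By RNA per exonic kb, Lamb1 led in kidney at 7.04 ± 1.20 with no overlap with Agrn, the next member, and in brain Agrn stood alone at 5.81 ± 0.848, above Lamb2 at 1.40 ± 0.355.

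Most of these messages carried many footprints for their RNA already in WT. As a description, the log2 ratio of footprints to RNA was above the median of 11727 genes in kidney for 9 of 10 members, with Lama2, the α2 chain of muscle and Schwann cell basement membranes, at percentile 96.5, Nid1 at 92.7 and Lamc1 at 90.3. Lama5 alone lay below, at percentile 21.4. In brain 9 of 10 members were also above the median of 12650 genes, with Lama2 at percentile 95.2 and Lama1 at 94.5, and here Agrn was the one below, at 27.7. The ratio was not corrected for untranslated sequence, which takes RNA reads but few footprints.

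In KO kidney, footprints on all 10 members were higher than in WT, with log2 fold changes from 0.26 (Lama1) to 1.14 (Lama2) and a median of 0.68. Over 13454 genes the median was -0.02, and over the 1169 genes whose protein was at least as long as Nid1 it was 0.26, and the part of protein length in the members' values was not tested. By edgeR, 7 of 10 members were called higher (Lama2, Lama5, Lamb1, Lamc1, Nid1, Hspg2 and Agrn), where 4.75% of 75266 transcripts were, and for 8 of 10 the KO libraries were all above the WT libraries, as for 15.5% of transcripts. These are the values that chose the members, and nothing is read from the counts. Across all transcripts 3573 were called higher and 2265 lower, a split that became 1555 and 2516 when libraries were scaled by their totals alone, under which all 10 members stayed higher (median 0.61) and 4 were called.

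**Figure D2:**
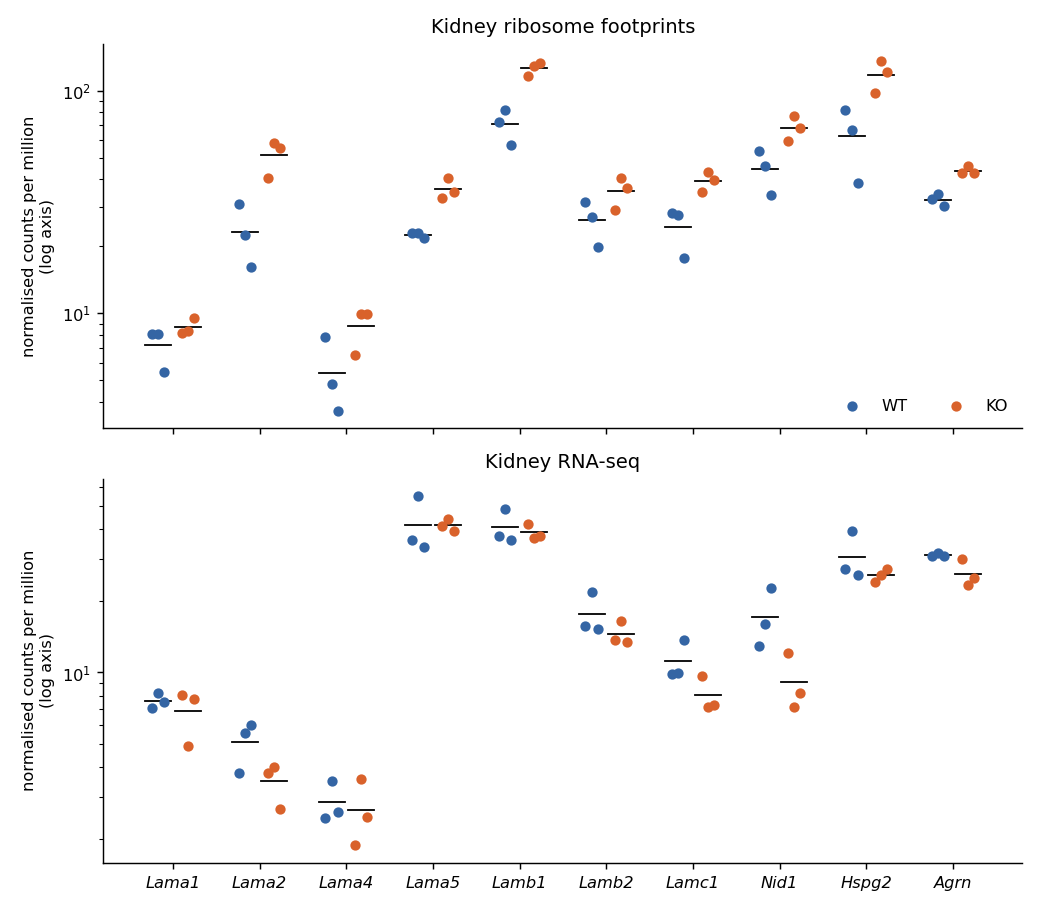
Level of each member (CPM) in the 3 WT and 3 KO kidney libraries, footprints above and RNA below, on log axes with black bars for group means. In the footprint panel the KO points lie above the WT points for all members except Lama4 and Lamb2, whose ranges overlap. In the RNA panel most ranges overlap and the KO points lie below the WT points for Lamc1, Nid1 and Agrn.

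Among the α chains, Lama2 had 31.1, 22.5 and 16.1 in the WT libraries and 40.8, 58.0 and 55.3 in the KO libraries (footprint CPM), 2.21 times the WT mean, and Lama5 had 23.0, 22.9 and 21.8 in the WT libraries and 33.0, 40.6 and 35.1 in the KO libraries, 1.61 times the WT mean. Neither gene's groups overlapped, and the WT libraries of Lama5 differed little among themselves. Their log2 fold changes were 1.14 ± 0.20 (SE) and 0.69 ± 0.11. Lama4, the chain of endothelial basement membranes, had 7.81, 4.81 and 3.65 in the WT libraries and 6.48, 9.90 and 9.97 in the KO libraries and overlapped, since KO replicate 1 lay below WT replicate 1 (log2 fold change 0.68 ± 0.22). Lama1 was the member that differed least, with 8.06, 8.09 and 5.48 in the WT libraries and 8.15, 8.33 and 9.54 in the KO libraries and a log2 fold change of 0.26 ± 0.15. Its 2 highest WT libraries and its 2 lowest KO libraries were almost level.

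Of the β and γ chains, Lamb1, the β1 chain found in most basement membranes, had 72.1, 82.2 and 57.3 in the WT libraries and 116, 129.8 and 134 in the KO libraries with a log2 fold change of 0.84 ± 0.14. Lamb2, the β2 chain of the glomerulus and the neuromuscular junction, had 31.7, 27.1 and 19.9 in the WT libraries and 29.1, 40.4 and 36.4 in the KO libraries. Its groups overlapped, and its log2 fold change of 0.43 ± 0.16 was about the size of Agrn's at 0.43 ± 0.10. Lamc1, the γ1 chain shared by most laminins, had 28.2, 27.7 and 17.7 in the WT libraries and 35.1, 43.2 and 39.6 in the KO libraries and a log2 fold change of 0.68 ± 0.16. WT replicate 3 was the lowest WT library for Lamb1 and Lamc1, and KO replicate 1 the lowest KO library.

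Outside the trimer, Nid1, the nidogen linker, had 53.6, 46.0 and 34.2 in the WT libraries and 59.2, 77.2 and 68.3 in the KO libraries and a log2 fold change of 0.61 ± 0.16. Hspg2 had 82.2, 66.4 and 38.6 in the WT libraries and 97.3, 135 and 121 in the KO libraries, with a wide WT spread (62.4 ± 22.1, SD) and a log2 fold change of 0.92 ± 0.22. Agrn had 32.5, 34.5 and 30.4 in the WT libraries and 42.6, 45.7 and 42.8 in the KO libraries, tight groups that did not overlap. In all 3 genes every KO library exceeded every WT library.

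Every member transcript that passed the count filter was higher in KO in kidney footprints. Of 51 member transcripts tested, log2 fold changes ran from 0.01 to 1.34, and 27 were called higher and 0 lower. The transcripts of a gene share most of their fragments and are not independent. In RNA and TE the member transcripts did not all share a sign. Their log2 values ran from -1.37 to 1.16 in kidney RNA (34 transcripts) and from -3.74 to 5.39 in kidney TE (54). In brain RNA they ran from -1.52 to 0.10 (40) and in brain TE from -2.05 to 2.36 (54). Member values given below are those of the 1 transcript read per gene. The calls on the members depended on which KO library was left out. KO replicate 1 was both the shallowest library and the lowest KO library for every member, so depth and level cannot be told apart. Without KO replicate 3 only 1 member was called and without KO replicate 2 only 2, whereas without KO replicate 1, with 11036643 counts against 39384669 and 42452425 in the other 2, 8 were. Calls over all transcripts were not set beside these counts, so a change particular to the members cannot be read from them. The median member log2 fold change stayed between 0.50 and 0.78 in the 6 fits that left out 1 library.

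Summed markers of several cell types also differed between these kidney footprint libraries. The 6 endothelial markers summed to 121 to 168 in the WT and 178 to 200.5 in the KO libraries (CPM, 1 of 6 tested were called higher and 5 had positive values), the 6 fibroblast markers to 153 to 227 in the WT and 201 to 296 in the KO libraries (1 of 6), and the 6 mural cell markers to 85.9 to 125 in the WT and 118 to 151 in the KO libraries (2 of 6). Of the mural markers 3 had positive and 3 negative values, with a median log2 fold change of 0.02. Proximal tubule markers summed to 3639 to 4254 in the WT and 4967 to 5703 in the KO libraries (2 of 6), podocyte markers to 63.1 to 111 in the WT and 76.9 to 80.2 in the KO libraries (0 of 6) and leukocyte markers to 21.8 to 32.8 in the WT and 32.8 to 36.4 in the KO libraries (2 of 4). Of the podocyte markers 5 of 6 had negative values, with a median log2 fold change of -0.22. The groups did not overlap for the endothelial, proximal tubule and leukocyte sums, although the highest WT and the lowest KO library were level for the last. No marker of these lists was at 0 in all libraries, none was called lower, and their part in the members' values was not tested. In whole tissue, more cells of a type and more RNA or footprints per cell cannot be told apart.

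The kidney RNA of the members was not higher in KO. Log2 fold changes ran from -0.91 (Nid1) to -0.00 (Lama5) with a median of -0.26, against 0.10 over 13906 genes, 0.00 over the 1148 long ones and -0.03 over all transcripts, and 0 members were called by edgeR (1 at an unadjusted p under 0.05, 0 by DESeq2 and 3 by limma voom with quality weights), where 0.00992% of 70545 transcripts were called lower. Over all 70545 transcripts 11881 had an unadjusted p under 0.05. DESeq2 called 343 of the transcripts higher and 197 lower, and limma voom called 14501 higher and 14860 lower. Scaling by library totals lowered the median of all transcripts from -0.03 to -0.19 and that of the members from -0.26 to -0.41. All 10 members were lower by edgeR, but 9 of 10 by DESeq2, 8 of 10 by limma voom and 7 of 10 with counts summed per gene, so the direction of the smallest differences depended on the method. For 3 members every KO library lay below every WT library, as did 10.1% of transcripts.

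Nid1 RNA was 12.9, 16.0 and 22.6 in the WT libraries and 12.1, 7.16 and 8.18 in the KO libraries, 0.533 times the WT mean (log2 fold change -0.91 ± 0.27). Lamc1 RNA was 9.85, 9.95 and 13.7 in the WT libraries and 9.68, 7.16 and 7.30 in the KO libraries (log2 fold change -0.47 ± 0.21). For both genes KO replicate 1 lay just under the lowest WT library and KO replicates 2 and 3 lay well below it. Lama5 RNA, at 35.9, 54.9 and 33.8 in the WT libraries and 41.1, 44.1 and 39.1 in the KO libraries, did not separate the genotypes at all, with a log2 fold change of -0.00 ± 0.20. Lama2 RNA was 3.77, 5.56 and 6.03 in the WT libraries and 3.80, 4.02 and 2.68 in the KO libraries and overlapped (log2 fold change -0.55 ± 0.27), so the member with the largest footprint fold change had the second lowest RNA fold change. Agrn was the third member without overlap, at 30.8, 31.7 and 30.9 in the WT libraries and 30.0, 23.2 and 24.8 in the KO libraries (log2 fold change -0.26 ± 0.14). The other 5 members had log2 fold changes of -0.27 to -0.07 and overlapping groups. In the same RNA libraries the summed podocyte markers were 119 to 154 in the WT and 85.4 to 95.5 in the KO libraries, mural markers 84.4 to 115 in the WT and 67.2 to 73.4 in the KO libraries, and endothelial markers 91.0 to 115 in the WT and 81.1 to 91.7 in the KO libraries, with no overlap for podocyte and mural markers and 0 of 6 called in each list. Other sums were higher, without overlap, namely those of proximal tubule markers at 3092 to 3245 in the WT and 3325 to 3786 in the KO libraries (3 of 6 with positive values) and of leukocyte markers at 34.8 to 44.8 in the WT and 45.1 to 47.9 in the KO libraries (4 of 5 tested), again with 0 called. Fibroblast markers overlapped, at 85.0 to 127 in the WT and 86.4 to 118 in the KO libraries. The part of these cell types in the RNA values was not tested.

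Kidney TE was higher in KO for all 10 members, with log2 values from 0.41 (Lama1) to 1.69 (Lama2) and a median of 0.87 against -0.12 over 15479 genes, 0.24 over the 1329 long ones and 0.08 over all transcripts. Nid1 at 1.52 ± 0.34, Hspg2 at 1.18 ± 0.35 and Lamc1 at 1.15 ± 0.29 followed Lama2 at 1.69 ± 0.36. No transcript of the table was called higher by the edgeR interaction fit (0%), and so 0 members (8 at an unadjusted p under 0.05, 5 by DESeq2 and 8 by limma voom with quality weights). Over all 89685 transcripts 17403 had an unadjusted p under 0.05. DESeq2 called 2281 of the transcripts higher and 1848 lower, and limma voom called 16504 higher and 10831 lower. The Nid1 value joined higher footprints to lower RNA, while that of Lama5, 0.70 ± 0.25, came from footprints alone. Without KO RNA-seq replicate 1, 6 members were called by edgeR, and the calls over all transcripts in that fit were not set beside them. Marker lists had positive TE values too, with 6 of 6 endothelial (median 0.67), 6 of 6 mural (0.64), 6 of 6 podocyte (0.42), 5 of 6 fibroblast (0.75), 5 of 6 proximal tubule (0.35) and 6 of 6 leukocyte markers (0.40), none of them called, and their part in the members' TE was not tested.

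**Figure D3:**
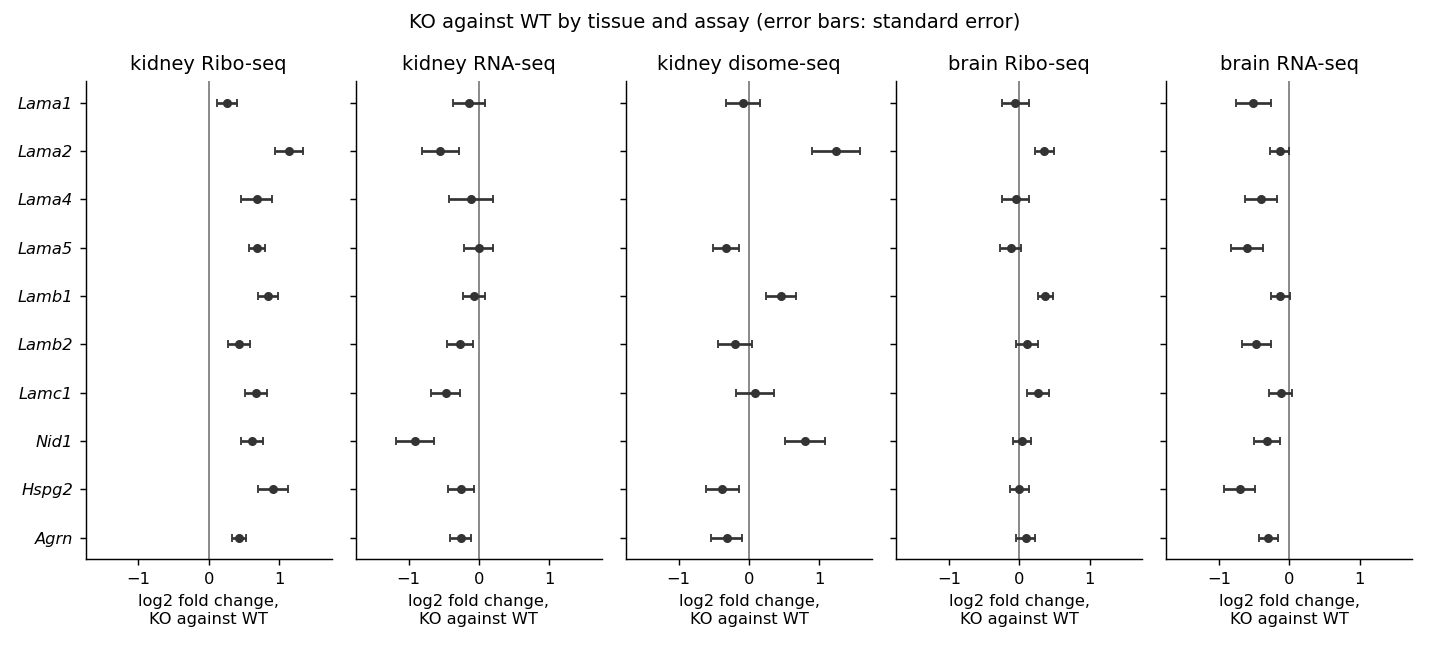
Log2 fold changes of KO against WT with standard errors for the 10 members in the 5 combinations of tissue and assay. In kidney Ribo-seq all points lie right of 0, from 0.26 to 1.14, in kidney and brain RNA-seq all lie at or left of 0, and in brain Ribo-seq they lie close to 0. Lama4 has no disome value because its counts were too low to be tested.

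Laminin chains assemble in equal numbers, so footprints per coding kb were summed over the 5 α, 3 β and 3 γ chains in each library, members and other chains together. In kidney the members made up 82.7 ± 0.175% (SD, n = 3) of the summed laminin level in WT and 84.3 ± 0.0792% in KO. The sums were 6.18 to 9.23 for α, 14.5 to 20.4 for β and 6.68 to 10.7 CPM per coding kb for γ in the WT libraries, against 11.0 to 14.7, 27.0 to 31.7 and 13.1 to 16.0 in KO, so each chain class was higher in every KO library. The proportions between classes were close, since the β sum was 1.99 ± 0.181 times the γ sum in WT and 2.06 ± 0.0810 times in KO, and the α sum was 0.853 ± 0.0803 and 0.914 ± 0.0703 times. In brain the β sum was 0.984 ± 0.0272 times the γ sum in WT and 0.963 ± 0.0377 times in KO, less than in kidney for every library.

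Within the α class the shares of Lama2 and Lama1 separated KO from WT kidney. Lama2 made up 31.4 ± 4.14% of α footprints per length in WT and 40.9 ± 1.40% in KO, and the ranges of 27.9 to 36.0% and 39.5 to 42.3% did not overlap. Lama1 made up 10.0 ± 0.875% and 7.08 ± 0.924%, also without overlap. Lama3, Lama4 and Lama5 overlapped, with 19.5 ± 2.52%, 12.5 ± 2.62% and 26.6 ± 4.66% in WT and 15.6 ± 1.72%, 11.9 ± 1.02% and 24.5 ± 2.55% in KO. By RNA, Lama5 was the main α chain of kidney at 57.0 ± 4.58% in WT, whereas by footprints it held 26.6 ± 4.66%. Lamb1 held 70.8 ± 2.85% of β footprints in WT kidney and 76.6 ± 2.00% in KO. In brain, Lamb2 was the larger β chain with 56.0 ± 5.32% in WT, and Lama2 the largest α chain with 43.8 ± 3.24% in WT and 50.1 ± 1.82% in KO. These shares come from the same libraries as the fold changes and were not tested.

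**Figure D4:**
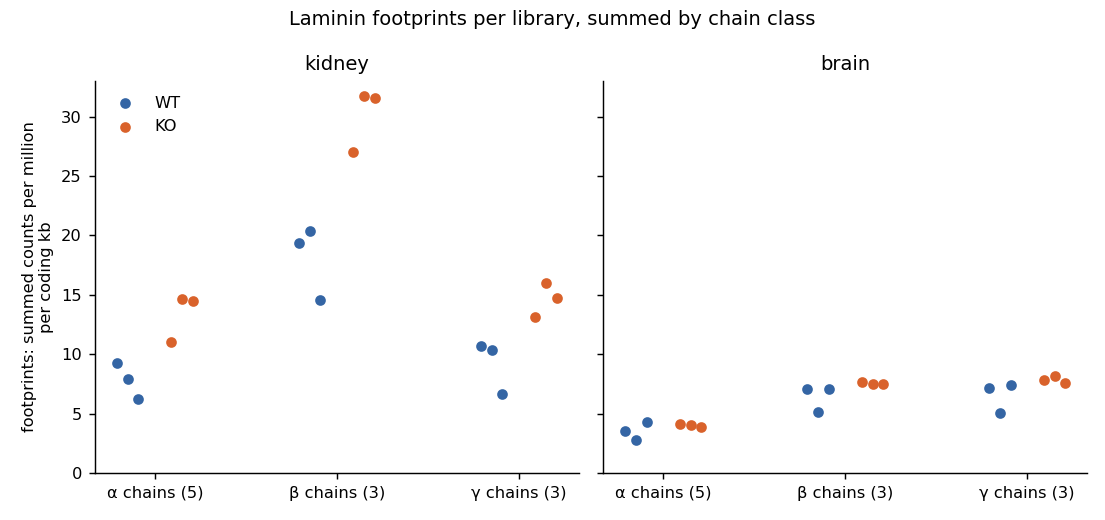
Footprints of laminin chains in each library, as CPM per coding kb summed over the α, β and γ chains, for WT and KO kidney (left) and brain (right). In kidney every KO point lies above every WT point in each class and β chains are the highest class, with WT points at 14.5 to 20.4 and KO points at 27.0 to 31.7. In brain the α and β sums are lower than in any kidney library, while the γ sums overlap those of WT kidney. WT replicate 2 of brain sits below the other brain libraries.

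Disomes, the footprints of 2 stacked ribosomes, did not follow single-ribosome footprints for most members in kidney. Of the 9 members that could be tested, 4 had more disomes in KO and 5 fewer, with a median log2 fold change of -0.09 against 0.01 over 7773 genes and 0.17 over the 885 long ones. 0 members were called by edgeR (3 at an unadjusted p under 0.05, 0 by DESeq2 and 0 by limma voom with quality weights), where 0.0892% of 34754 transcripts were called higher and 0.132% lower. The KO libraries were all above the WT libraries for 2 members (background 8.28%) and below for 1 (background 8.57%). Lama2 disomes (CPM) were 6.65, 4.66 and 3.34 in the WT libraries and 7.72, 17.7 and 12.5 in the KO libraries, from raw counts of 21, 15 and 4 in WT and 18, 34 and 14 in KO (log2 fold change 1.24 ± 0.34). Nid1 disomes were 10.1, 7.15 and 5.01 in the WT libraries and 12.0, 15.1 and 15.2 in the KO libraries (log2 fold change 0.80 ± 0.28). Lamb1 had 0.45 ± 0.21 with overlapping groups.

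On the other side, Lama5 disomes were 37.1, 50.3 and 49.2 in the WT libraries and 36.9, 35.4 and 35.7 in the KO libraries, all KO libraries below all WT libraries, although Lama5 footprints were higher (disome log2 fold change -0.32 ± 0.18). Hspg2 at -0.38 ± 0.24 and Agrn at -0.32 ± 0.22 were lower too, with overlapping groups. Lamc1, Lama1 and Lamb2 had disome log2 fold changes of 0.08, -0.09 and -0.20, each within 1 standard error of 0. Lama4, with 20, 13 and 3 disome counts in WT and 5, 7 and 2 in KO, did not pass the count filter of the disome fit. At counts of this size only a large difference could have been detected for the rarer members. In the same libraries the podocyte markers summed to 36.7 to 43.7 in the WT and 16.1 to 28.6 in the KO libraries (1 of 3 tested was called lower) and the endothelial markers to 41.7 to 67.7 in the WT and 70.3 to 95.6 in the KO libraries. Proximal tubule markers summed to 1543 to 1779 in the WT and 1843 to 2335 in the KO libraries and fibroblast markers to 29.2 to 37.6 in the WT and 38.6 to 61.9 in the KO libraries. These 4 sums did not overlap, 0 markers of the last 3 lists were called, mural and leukocyte sums overlapped, and the part of these cell types in the disome values was not tested.

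Relative to footprints, disomes were lower in KO for 8 of 10 members, with a median log2 value of -0.60 against -0.03 over 12242 genes and -0.11 over the 1087 long ones. The lowest were Lama4 at -1.53 ± 0.61, Hspg2 at -1.29 ± 0.36 and Lama5 at -0.997 ± 0.204, and Lama2 at 0.11 ± 0.45 and Nid1 at 0.20 ± 0.33 were the 2 that were not lower. Lama4 is counted among the 8 although it did not pass the count filter of the disome fit. Its value rests on 20, 13 and 3 disome counts in WT and 5, 7 and 2 in KO. No transcript of the table was called lower (0%), and 0 members were called (4 at an unadjusted p under 0.05, 1 by DESeq2 and 0 by limma voom with quality weights). Over all 67065 transcripts 3964 had an unadjusted p under 0.05, and DESeq2 called 9 of the transcripts higher and 1 lower. In WT kidney, where 5562 genes reached 10 counts in each library of the 2 assays, the 2 α chains Lama5 and Lama1 carried many disomes per footprint, at percentiles 87.4 and 84.9. Hspg2 at 3.76, Lamc1 at 7.46 and Lamb1 at 10.9 carried few. Lamb2 and Agrn lay at 15.9 and 41.9, and Lama2, Lama4 and Nid1 had too few disomes for the ratio.

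**Figure D5:**
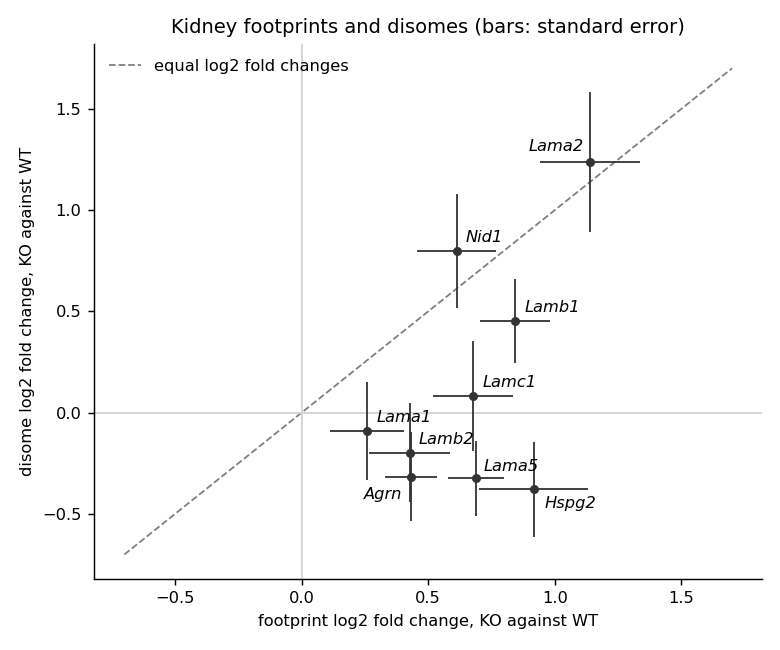
Disome against footprint log2 fold change, KO against WT in kidney, for the 9 members with a disome fit. Bars are standard errors and the dashed line marks equal values. Lama2 and Nid1 lie at or above the line, and Lama5, Hspg2 and Agrn lie below 0 on the disome axis at footprint values of 0.43 to 0.92.

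In brain the members' footprints differed little between genotypes. Log2 fold changes ran from -0.12 (Lama5) to 0.37 (Lamb1) with a median of 0.07, against -0.03 over 14465 genes and 0.11 over the 1313 long ones. 0 members were called by edgeR (2 at an unadjusted p under 0.05, 0 by DESeq2 and 0 by limma voom with quality weights), where 0.00123% of 81112 transcripts were called higher. Lamb1 footprints were 15.5, 12.7 and 15.0 in the WT libraries and 19.0, 18.8 and 18.7 in the KO libraries (log2 fold change 0.37 ± 0.11) and those of Lama2 13.5, 12.0 and 17.8 in the WT libraries and 18.4, 19.2 and 18.4 in the KO libraries (log2 fold change 0.36 ± 0.14). These were the 2 members without overlap between genotypes, a separation shared by 9.4% of transcripts. Lamc1 at 0.27 ± 0.16 came next, with overlapping groups. WT replicate 2, the shallowest library, was the lowest WT library for 9 of the 10 members, Lama5 being the exception, and without it the member median was -0.055. In these libraries all 6 endothelial markers had negative values (median log2 fold change -0.65), with sums of 32.6 to 58.4 in the WT and 26.6 to 40.2 in the KO libraries, and so had 4 of 6 mural markers (median -0.40), with sums of 42.8 to 54.2 in the WT and 44.2 to 50.5 in the KO libraries. Both sums overlapped, 0 of these markers were called, and their part in the members' footprints was not tested.

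Brain RNA of all 10 members was lower in KO, with log2 fold changes from -0.70 (Hspg2) to -0.12 (Lamc1) and a median of -0.36, against 0.10 over 15731 genes, -0.05 over the 1344 long ones and -0.02 over all transcripts. This direction was the same for all 10 by DESeq2, by limma voom, with library totals and with counts summed per gene, but without WT replicate 3 Lamc1 was at 0.049. 0 members were called by edgeR (2 at an unadjusted p under 0.05, 0 by DESeq2 and 0 by limma voom with quality weights), where 0.0134% of 89237 transcripts were called lower. Hspg2 RNA was 3.83, 2.95 and 4.17 in the WT libraries and 2.76, 1.73 and 2.20 in the KO libraries (log2 fold change -0.70 ± 0.22), and the groups did not overlap. Lama2 and Nid1 did not overlap either, and 4.43% of transcripts were separated in that direction. Lama5 RNA was 4.89, 2.84 and 3.87 in the WT libraries and 2.89, 2.19 and 2.56 in the KO libraries, where KO replicate 1 exceeded WT replicate 2 slightly (log2 fold change -0.60 ± 0.22). Agrn, the most abundant member in brain, was 41.8, 33.5 and 44.7 in the WT libraries and 34.5, 30.7 and 32.3 in the KO libraries (log2 fold change -0.30 ± 0.13). In these libraries the 6 endothelial markers summed to 20.9 to 29.9 in the WT and 13.2 to 20.9 in the KO libraries and the 6 mural markers to 43.0 to 57.8 in the WT and 38.0 to 40.2 in the KO libraries, with all values negative, 0 of 6 called in each list and no marker at 0. Astrocyte markers were higher, at 304 to 321 in the WT and 361 to 379 in the KO libraries (5 of 5 with positive values), as were microglia markers at 24.9 to 29.3 in the WT and 32.5 to 33.4 in the KO libraries (4 of 4), both without overlap and with 0 called. Neuron markers overlapped, at 1411 to 1693 in the WT and 1645 to 1887 in the KO libraries (median log2 fold change 0.22). The part of these cell types in the members' RNA values was not tested.

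Brain TE was higher in KO for all 10 members by the 1 transcript read per gene, with log2 values from 0.39 (Nid1) to 0.73 (Hspg2). Their median was 0.50 against -0.11 over 16721 genes, 0.17 over the 1405 long ones and 0.01 over all transcripts. Over all 54 member transcripts tested the values ran from -2.05 to 2.36, so neither the sign nor this band held for every transcript. 0 members were called by edgeR (3 at an unadjusted p under 0.05, 0 by DESeq2 and 0 by limma voom with quality weights), as was the case for every transcript in that direction (0% of 98861). Over all 98861 transcripts 4797 had an unadjusted p under 0.05. For Hspg2 the value of 0.73 ± 0.27 came from lower RNA at equal footprints, and for Lamb1 the value of 0.52 ± 0.17 mostly from higher footprints.

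The difference between the kidney and brain responses was also fitted, and is a description like the values it is made of. In footprints the KO against WT value was larger in kidney for all 10 members (median difference 0.52 on the log2 scale against -0.00 over 15612 genes and 0.13 over the 1354 long ones), led by Hspg2 at 0.92 ± 0.29, Lama5 at 0.82 ± 0.18 and Lama2 at 0.79 ± 0.27. 0 members were called by edgeR (6 at an unadjusted p under 0.05, 1 by DESeq2 and 0 by limma voom with quality weights), where 0.0361% of 88666 transcripts were called higher. Over all 88666 transcripts 6818 had an unadjusted p under 0.05, and DESeq2 called 130 of the transcripts higher and 96 lower. In RNA the difference ran from -0.59 (Nid1) to 0.59 (Lama5), with 0 members called (0 at an unadjusted p under 0.05, 0 by DESeq2 and 2 by limma voom with quality weights), where 0.00108% of transcripts were called higher. Over all transcripts limma voom called 4867 higher and 9163 lower.

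Most other genes of the basement membrane also had positive values in kidney footprints. Their lists were chosen with earlier results of these data known. The calls and adjusted p given for them here and in the next paragraphs are therefore a description and carry no test. Among 65 genes in 6 lists, 63 were tested, 14 were higher and 0 lower in KO at an adjusted p under 0.05, and 50 had positive values, where 4.75% of all transcripts were called higher and 47.6% of 13454 genes had positive values, and the median of the 1169 long genes was 0.26. Of the laminin chains outside the members Lamc3, a γ chain, rose, with 13.1 ± 3.89 CPM in WT and 21.0 ± 2.47 in KO (log2 fold change 0.67 ± 0.17, edgeR adjusted p = 0.0327, called in 9 of 14 alternative settings). Lama3 at 0.50 ± 0.15 and Lamb3 at 0.38 ± 0.22 did not pass (edgeR adjusted p of 0.0623 and 0.298). Of the 8 basement membrane collagens, all 8 were positive (median 0.42) and Col15a1 rose, with 21.3 ± 4.66 CPM in WT and 42.4 ± 6.85 in KO (log2 fold change 1.00 ± 0.16, edgeR adjusted p = 0.00691, called in 14 of 14 alternative settings). The main network collagens Col4a1 and Col4a2, which nidogen joins to laminin, had log2 fold changes of 0.51 ± 0.18 and 0.51 ± 0.18 and did not pass (adjusted p of 0.0998 and 0.0966).

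Among 16 other basement membrane glycoproteins 6 rose and 0 fell. The 3 with the largest fold and no overlap were Frem1, with 2.18 ± 0.566 CPM in WT and 4.12 ± 0.509 in KO (log2 fold change 0.95 ± 0.19, edgeR adjusted p = 0.0142, called in 11 of 14 alternative settings), Pxdn, the peroxidase that cross-links collagen IV, with 13.6 ± 1.58 CPM in WT and 24.4 ± 0.527 in KO (log2 fold change 0.84 ± 0.11, edgeR adjusted p = 0.00291, called in 14 of 14 alternative settings), and Fras1, with 16.2 ± 1.29 CPM in WT and 28.0 ± 4.44 in KO (log2 fold change 0.80 ± 0.13, edgeR adjusted p = 0.00665, called in 13 of 14 alternative settings). Frem1 and Fras1 are partners in the anchoring of embryonic skin and kidney epithelia. Among 16 receptors and anchors 4 rose and 0 fell. Itga1, a collagen and laminin receptor subunit, had 53.1 ± 9.06 CPM in WT and 80.1 ± 9.30 in KO (log2 fold change 0.59 ± 0.14, edgeR adjusted p = 0.0250, called in 9 of 14 alternative settings). Lrp4, the agrin receptor, had 15.1 ± 1.48 CPM in WT and 21.4 ± 3.56 in KO (log2 fold change 0.52 ± 0.13, edgeR adjusted p = 0.0307, called in 8 of 14 alternative settings). Itgb1, the β1 integrin subunit that pairs with most laminin-binding α subunits, had 95.6 ± 6.69 CPM in WT and 126 ± 4.08 in KO (log2 fold change 0.40 ± 0.11, edgeR adjusted p = 0.0474, called in 6 of 14 alternative settings). Dystroglycan, encoded by Dag1, did not pass at 0.24 ± 0.13 (adjusted p = 0.255), nor did the laminin receptor subunit Itga6 at -0.03 ± 0.21 (0.959). Of 13 enzymes that build the sugar chains of dystroglycan and heparan sulfate, 6 had positive and 7 negative values and 1 rose, Pomt1 with 11.8 ± 0.605 CPM in WT and 15.5 ± 0.157 in KO (log2 fold change 0.38 ± 0.10, edgeR adjusted p = 0.0369, called in 6 of 14 alternative settings). Of 8 proteases and inhibitors 1 rose, Adamts1 with 20.2 ± 3.15 CPM in WT and 30.5 ± 3.49 in KO (log2 fold change 0.58 ± 0.13, edgeR adjusted p = 0.0217, called in 11 of 14 alternative settings). Named after their values were seen, Nid2, the paralog of Nid1, and Sdc2, a syndecan, were also among the risen genes, at 0.71 ± 0.17 (edgeR adjusted p = 0.0297) and 0.40 ± 0.11 (0.0482). Of the 14 genes called, 2 were called without KO replicate 3, 3 without KO replicate 2, 6 without WT replicate 1, 7 without WT replicate 2, 11 without KO replicate 1 and 12 without WT replicate 3.

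Outside kidney footprints these lists gave no calls by edgeR. In kidney RNA 0 of 63 genes were called (10 at an unadjusted p under 0.05, 1 by DESeq2 and 22 by limma voom), in brain footprints 0 of 61 (12, 0 and 0), in brain RNA 0 of 63 (7, 0 and 1) and in disomes 0 of 36 (6, 0 and 0). Over all transcripts an unadjusted p under 0.05 was held by 11881 of 70545 in kidney RNA and 10211 of 81112 in brain footprints. In brain RNA 3087 of 89237 held it, and in disomes 3759 of 34754. In kidney RNA limma voom called 14501 transcripts higher and 14860 lower. In kidney TE 0 of 65 genes were called (28, 8 and 20) and 54 had positive values, against 41.3% of 15479 genes. Of all 89685 transcripts 17403 held an unadjusted p under 0.05. DESeq2 called 2281 higher and 1848 lower, and limma voom 16504 and 10831. In brain TE 0 of 64 were called (5, 0 and 0) and 33 had positive values, against 36.5% of 16721 genes. The collagens resembled the members in sign, as 7 of 8 had lower kidney RNA and 8 of 8 lower brain RNA in KO, with median log2 fold changes of -0.28 and -0.41. Their TE was higher in KO for 8 of 8 in both tissues, with medians of 0.76 in kidney and 0.58 in brain, so higher TE was not particular to the members.

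The genes outside the set whose pattern was most like the members' mean were Fbn1, Fn1, Col4a1, Col4a2 and Lrp1, with Pearson's r of 0.905, 0.896, 0.892, 0.890 and 0.887 over 24 Ribo-seq and RNA-seq libraries, out of 9889 genes with at least 10 counts in each. Values were log2 CPM centred on each tissue and assay, so they hold genotype and library differences but not tissue levels, and the points share libraries and depth. They encode fibrillin 1, fibronectin, the 2 main collagen IV chains and a large endocytic receptor. Among the members, r with the mean of the other 9 was highest for Hspg2 (0.882), Lamb2 (0.877) and Agrn (0.857) and lowest for Lama1 (0.639) and Lama5 (0.683).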

How the data were processed

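The analysis used 30 mouse libraries, 3 replicates of each of 10 groups, from a deposited table of raw read counts per transcript. As the study's methods describe, the authors trimmed reads with cutadapt and the FASTX Toolkit, removed rRNA, aligned to the mouse transcriptome and genome (GRCm38.p6, mm10) with STAR, allowing multiple alignments, and counted with featureCounts of Subread, so fragments shared by transcripts or related chains can be counted more than once. Another 28 columns of per-sample values, in a human table whose column names matched no human sample, were not used. The labels number the replicates, and the study's text calls them biological, and p-values measure the spread between these libraries. Of 142604 transcripts, 141374 matched the GENCODE M21 annotation of GRCm38, and each gene was read through the transcript with the longest protein. The members and all lists, including those of the basement membrane and of cell type markers, were chosen with earlier results of these data known. 1 gene of the lists enters counts and sums but is not reported here.

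Deposited counts were tested without a replicate block in edgeR 4.0.16 (R 4.3.3) by filterByExpr, TMM scaling and the quasi-likelihood F-test across all transcripts, p-values being adjusted by Benjamini-Hochberg and called under 0.05. Standard errors were derived from the F statistic. TE and disomes relative to footprints were interaction terms. The study used another tool for TE, which was not run here. The code was checked on simulated data. Alternatives were DESeq2 1.42.0, limma 3.58.1 voom with quality weights, library totals, no filter, a minimum of 10 counts per library, gene-level sums, 1 transcript per gene, a replicate block, and each library left out. Named were all members and, per list, up to 3 called genes with the largest fold and no overlap, and the 5 genes most like the members followed Pearson's r. Levels were compared between genes per coding kb for footprints and per exonic kb for RNA. Depth limits precision most in disome-seq.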

Additional observations from a re-analysis of the deposited data

How the results depend on the processing

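In kidney footprints 4 members were called with library totals and 4 with counts summed per gene against 7, and 1 to 8 without 1 library, while all 10 were higher under each other scaling and test. Kidney RNA gave 3 calls by limma voom against 0 and 0 to 1 without 1 library, and its median moved from -0.26 to -0.41 with library totals and lay at -0.309 to -0.0836 without 1 library. Kidney TE gave 5 calls by DESeq2, 6 with 1 transcript per gene, 8 by limma voom and 0 to 6 without 1 library, against 0. The disome median became -0.24 with at least 10 counts in every library (1 library left out: -0.186 to -0.00746, 0 to 1 calls). Disomes relative to footprints gave 1 call by DESeq2 and 2 without a filter against 0. WT footprints, kidney against brain, gave 5 calls with library totals and 5 summed per gene against 8, and 5 to 9 without 1 library. WT RNA gave 7 to 9 calls without 1 library. WT TE gave 4 by DESeq2 and 4 by limma voom against 2, and 2 to 4 without 1 library. The kidney against brain response gave 1 call by DESeq2 and 2 without a filter in footprints, and 2 by limma voom in RNA, against 0. Medians without 1 library were 0.498 to 0.780 in kidney footprints, -0.0554 to 0.167 in brain footprints, -0.493 to -0.243 in brain RNA, 0.740 to 1.07 in kidney TE and 0.358 to 0.590 in brain TE. Calls over all transcripts changed with the setting too. In kidney TE with 1 transcript per gene, 167 were higher and 107 lower. With counts summed per gene, 526 genes were higher and 260 lower in kidney footprints, and 7387 and 7292 in WT footprints. In WT footprints with library totals, 27264 were higher and 31350 lower. Calls over all transcripts in the fits without 1 library or without a filter were not set beside the members' counts. By limma voom 14501 were higher and 14860 lower in kidney RNA, and 16504 higher and 10831 lower in kidney TE. The cause was not tested for any of these.

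Signs also turned for some values near 0. In KO against WT they turned in at least 1 setting in kidney RNA for Lama1 (-0.293 to 0.0555), Lama4 (-0.385 to 0.174), Lama5 (-0.158 to 0.252), Lamb1 (-0.225 to 0.0771) and Agrn (-0.412 to 0.0377), in brain footprints for Lama1, Lama4, Lamb2, Nid1, Hspg2 and Agrn (all within -0.226 to 0.227), in brain RNA for Lamc1 (-0.261 to 0.0492), in disomes for Lamc1 (-0.111 to 0.212) and in disomes relative to footprints for Lama2 (-0.311 to 0.559). In WT kidney against brain, Agrn RNA became 0.130 with counts summed per gene. Lama4 footprints ran from -0.0675 to 0.553 without 1 library, the lowest without WT kidney replicate 1. In TE, Lama2 became -0.0341 by DESeq2 and ran from -0.210 to 0.294 without 1 library, and Nid1 became -0.0628 by DESeq2 and -0.0253 with at least 10 counts in every library and ran from -0.141 to 0.224 without 1 library.

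Deviations of same-numbered WT and KO libraries from their group means had correlations over genes between -0.09 and 0.02 for footprints, -0.22 and 0.36 for RNA and 0.03 and 0.13 for disomes of kidney, and between -0.13 and 0.08 for footprints and -0.42 and 0.45 for RNA of brain. In no assay were all 3 over 0.1, so the libraries were taken to share only a number, although all 3 were positive in disome-seq. Not every library correlated best with its own number. A replicate block gave 7 members called in kidney footprints with a median of 0.69, and 9 in WT RNA, 7 in WT footprints and 2 in WT TE.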
